A study of Drosophila melanogaster with 91 samples.

Results

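Basement membranes are thin sheets of extracellular matrix that line epithelia and wrap muscles, nerves and other organs. Laminins, trimers of an alpha, a beta and a gamma chain, bind receptors on the cell surface and form a first network, and collagen IV, whose chains also form trimers, gives the sheet its mechanical strength. Nidogen, SPARC, papilin and perlecan are further components, and in the fly embryo migrating blood cells (hemocytes) are known as a main source of several of them, with the fat body a main source in the larva.

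The genes described here are those that encode these components and were chosen by FlyBase symbol, 8 in all: LanA, LanB1 and LanB2 (laminin alpha, beta and gamma chains), Col4a1 and vkg (the collagen IV chains), Ndg (nidogen), SPARC (a collagen-binding glycoprotein) and Ppn (papilin, a secreted proteoglycan-like protein). Of the 8, 7 had a line among the 15682 fly genes of the count table; LanB2 and perlecan (trol) were not analysed here. LanA lies on chromosome arm 3L, LanB1 on 2L, Ndg on 2R, and SPARC and Ppn on 3R. Col4a1 and vkg are neighbours on 2L on opposite strands. The exons of Ndg overlap those of CG34222 on the other strand, and since the strand setting of the counting is not given in the sources used here, reads of these genes cannot be told apart.

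Transcripts were measured by CEL-Seq, which sequences barcoded 3′ ends of polyadenylated RNA, in 91 single Drosophila melanogaster embryos with no stated mutation or treatment. Each embryo was dechorionated, watched under a microscope at 25°C and frozen at a set time from cellularization, when each nucleus of the syncytial embryo is walled off by membrane. The times ran from -15 to 1335 min, with 1 embryo every 15 min. For comparisons the embryos were taken as 7 consecutive windows of 13 embryos, window 1 from -15 to 165 min, window 2 from 180 to 360, window 3 from 375 to 555, window 4 from 570 to 750, window 5 from 765 to 945, window 6 from 960 to 1140 and window 7 from 1155 to 1335 min. Spread inside a window therefore includes change over time as well as differences among embryos.

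Libraries held from 3662 to 3308015 gene counts (median 1644069). Of them 6 had totals under 548023, the median divided by 3; these shallow libraries were at 120, 210, 825, 1065, 1155 and 1170 min. The library at 120 min was 96.0% spike-in and detected none of the members. The embryo labelled 825 min held 362 CPM (counts per 1000000 gene counts) of bcd and 1892 CPM of smg, transcripts of the early embryo, against its label. The deposited sample sheet gives a library index for each embryo, and libraries that share an index are called a pool here. These pools followed time, with pool 4 up to 315 min, pool 5 from 330 to 645, pool 6 from 660 to 990 and pool 7 from 1005 min. Levels are CPM. They were not divided by transcript length and are not compared between genes. In whole embryos, fewer cells of a type and less RNA per cell cannot be told apart.

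The members differed in when they came close to their own highest levels, laminins first. Laminin transcripts first passed 10 CPM at 60 min and the other 5 members between 180 and 225 min. Col4a1, vkg and Ndg all did so at 225 min, in 1 embryo that stood high in every member. A cut common to all genes is passed earlier by genes with higher levels, so these times alone do not give the order. At 60 min SPARC was at 9.09 CPM and Ppn at 5.56 CPM, and at 90 min LanA and LanB1 were back at 7.95 and 5.02 CPM. The embryo at 60 min also held only 1.52 CPM of bcd, against 98.0 CPM at 75 min. By window 2 the laminins had medians of 364 and 129 CPM, against their own highest window medians of 1141 and 243 CPM. The other 5 had medians from 0 to 38.1 CPM, against highest window medians from 167 to 1829 CPM. Up to window 4 the medians of those 5 were at most 79.4 CPM, and from window 5 on they were at least 96.9 CPM. All 7 varied with labelled time by edgeR's quasi-likelihood F-test of a spline over the 91 embryos, where 82.1% of 8717 tested genes did, so that varying was the common case. Adjusted p-values from that edgeR fit ran from 5.68e-23 for LanA to 9.17e-14 for Ppn. With library pool as a covariate 6 of the 7 were still called, vkg not (edgeR adjusted p = 0.0815). Of all 8717 genes tested 3146 were called with that covariate, against 7155 without it.

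**Figure D1:**
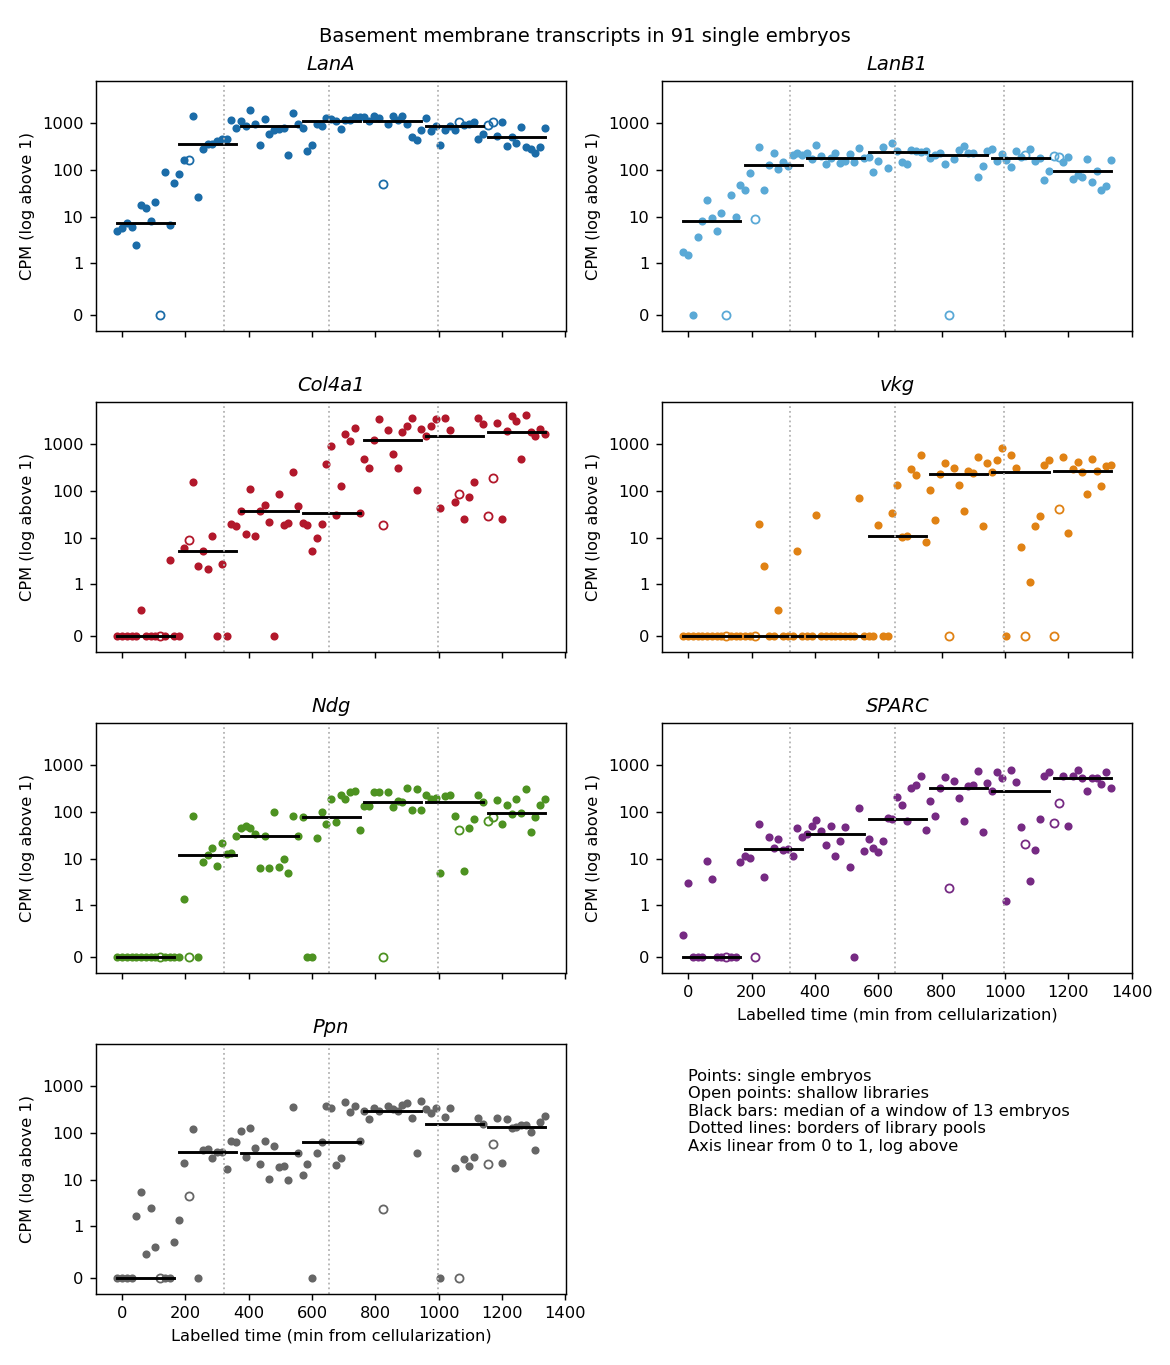
Level of each member (CPM, axis linear up to 1 and logarithmic above) against labelled time in min; each point is 1 embryo, open points are the 6 shallow libraries, black bars are window medians and dotted lines are borders of library pools. LanA and LanB1 have window medians of 888 and 183 CPM by window 3 and lower ones again in window 7, 507 and 95.4 CPM, whereas the medians of Col4a1 and vkg are at most 37.4 and 10.9 CPM up to window 4 and at least 1255 and 231 CPM from window 5 on, with single low embryos among the late ones.

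LanA, the laminin alpha chain, was at 0, 7.29 and 89.1 CPM in window 1 as lowest, median and highest embryo. In window 2 these values were 26.6, 364 and 1407 CPM. Every embryo of window 2 exceeded the median of window 1, and 11 of 13 exceeded its highest embryo. LanA rose by 4.61 ± 0.64 on the log2 scale (SE, n = 13 per window; edgeR adjusted p = 1.07e-05). Its first values over 10 CPM came at 60 min, and the embryo at 225 min stood out with 1407 CPM between neighbours at 162 (210 min) and 26.6 CPM (240 min). That embryo was also the highest of window 2 in each of the other 6 members. It stood out beyond the members too, with 1598 CPM of apolpp, a lipoprotein gene, against a window 2 median of 84.7 CPM. Mhc, a muscle myosin gene, was at 2.25 CPM there. Whether its stage differed from its label was not tested.

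Window medians of LanA were then 888, 1100 and 1141 CPM in windows 3, 4 and 5, and the highest single embryo, 1911 CPM, was at 405 min. From window 5 the medians went down to 861 CPM in window 6 and 507 CPM in window 7, where the embryos ran from 227 to 1064 CPM. All 13 embryos of window 7 lay below the median of window 5, although both ranges overlapped. The change from window 5 to 7 was -0.40 ± 0.34 (edgeR adjusted p = 0.442) and was not called.

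LanB1, the laminin beta chain, followed the same course at its own scale. Window 1 held 0, 8.24 and 47.3 CPM as lowest, median and highest value and window 2 held 9.10, 129 and 309 CPM. Again all 13 embryos of window 2 were above the median of window 1, and 10 were above its highest embryo. The rise was 3.48 ± 0.61 on the log2 scale (n = 13 per window; edgeR adjusted p = 1.65e-04). Medians were 183, 243, 211, 184 and 95.4 CPM in windows 3 to 7, with the highest embryo, 370 CPM, at 645 min. Within embryos the log2 ratio of LanA to LanB1 was 0.49 ± 1.07 in window 1 (SD, n = 11 embryos with at least 3 counts of both), 1.57 ± 1.08 in window 2 (n = 13) and 2.06 ± 0.63 in window 3, after which it stayed between 2.15 and 2.41. Whether the ratio differed between windows 1 and 2 depended on the value added to each level: with 1 CPM the change was 0.97 (two-sided permutation test, adjusted p = 0.0666 over 9 ratio comparisons) and with 10 CPM it was 1.19 (adjusted p = 0.00138).

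Col4a1, a collagen IV chain, was at 0 in 11 of the 13 embryos of window 1 and at most 3.28 CPM in the others. In window 2 the embryos ran from 0 through a median of 5.29 to 158 CPM, in window 3 from 0 through 37.4 to 259 CPM. Window 4 ran from 5.13 through 34.0 to 2184 CPM, and here the embryos divided along time. The 5 embryos from 570 to 630 min held 5.13 to 20.4 CPM, the one at 645 min held 380 CPM, and those at 660, 705, 720 and 735 min held 908, 1630, 1169 and 2184 CPM. Low values came between these, 31.0 CPM at 675 min, 126 CPM at 690 min and 34.0 CPM at 750 min. Medians of windows 5, 6 and 7 were 1255, 1521 and 1829 CPM, and the highest embryo held 4219 CPM at 1275 min.

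The other collagen IV chain, vkg, was at 0 in all 13 embryos of window 1, in 9 of window 2 and in 11 of window 3. In a library of median depth a count of 0 allows a level of up to 1.82 CPM (3 counts, counting error only). Window 4 ran from 0 through a median of 10.9 to 582 CPM. Medians of windows 5, 6 and 7 were 231, 253 and 261 CPM, with lowest values of 0 and highest values of 528, 828 and 533 CPM. In embryos with at least 3 counts of both chains the log2 ratio of Col4a1 to vkg was 2.78 ± 0.45 (SD, n = 12) in window 5, 2.59 ± 0.42 (n = 10) in window 6 and 2.67 ± 0.71 (n = 12) in window 7. Those values differed by less than the spread between embryos (two-sided permutation test, windows 5 and 7, ratios with 1 CPM added, adjusted p = 0.888).

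Ndg, which encodes nidogen, a linker of laminin and collagen IV networks, was at 0 in all 13 embryos of window 1. Medians in windows 2 to 7 were 12.1, 31.2, 79.4, 167, 164 and 96.9 CPM, and the highest embryo was at 900 min with 327 CPM. SPARC had 0 in 8 embryos of window 1 and a highest value there of 9.09 CPM; window 2 ran from 0 through a median of 15.7 to 54.3 CPM, with 11 of 13 embryos above all of window 1. It rose by 3.27 ± 0.75 (edgeR adjusted p = 1.89e-03), the only non-laminin member with enough counts for the test in windows 1 and 2. SPARC then went through medians of 34.1, 71.1, 321, 287 and 524 CPM. Ppn reached a median of 38.1 CPM in window 2 and stayed at 36.5 CPM in window 3, then passed 64.0 CPM in window 4 to 299 CPM in window 5, and was at 156 and 133 CPM in windows 6 and 7.

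From window 1 to window 2 the test took 3 of the 7 members and called all 3 as risen, LanA, LanB1 and SPARC, where 25.1% of 5739 genes tested were called and 11.1% rose. Col4a1, vkg, Ndg and Ppn did not pass the filter on low counts. With no filter all 7 were called as risen in this step, as were 2311 of 11503 genes tested. The edgeR test therefore does not set the laminins apart from the others here. The log2 ratio of Col4a1 to LanA was lower in window 2 by 2.54 with 1 CPM added (two-sided permutation test, adjusted p = 0.00582). With 10 CPM added its change was -3.06 (same test, adjusted p = 0.00018). Col4a1 was at 0 in 11 of 13 embryos of window 1, so the size of that change depends on the value added. Fitted changes of the genes at 0 in most of window 1 depend on the prior count and are not given. Since a member could pass only through window 2, where it is high, the count over those that passed is a description. Within pool 4 alone, with 13 against 10 embryos, the same 3 rose, LanA by 4.32, LanB1 by 3.29 and SPARC by 3.14, and without the embryo at 120 min they rose by 4.67, 3.54 and 3.32.

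Between adjacent later windows edgeR called none of the members. The shares of all genes called were 3.52% from window 2 to 3, 0.27% from 3 to 4, 0.0956% from 4 to 5, 0.549% from 5 to 6 and 0% from 6 to 7. At an unadjusted p under 0.05, LanA, LanB1 and Col4a1 passed from window 2 to 3, where 1060 of 5682 genes tested did. Col4a1, Ndg, SPARC and Ppn passed from window 3 to 4, where 827 of 5546 did, and no member in the other steps. DESeq2 called LanA as risen from window 2 to 3 and Col4a1, Ndg and SPARC from window 3 to 4. Of all genes tested it called 457 of 5682 and 193 of 5546 in these steps. With limma voom LanA and Col4a1 were called from window 2 to 3, where 347 of 5682 genes tested were called. Neither method called a member in the other steps. From window 3 to 4 the edgeR change of Col4a1 was 3.58 ± 0.90 (adjusted p = 0.0952).

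Windows 3 and 5 lie on either side of the spread-out step in window 4 and were compared after their values had been seen. Of the 7 members 5 rose and neither laminin did, where 37.2% of 6011 genes tested were called and 23.4% rose. Since vkg was at 0 in 11 of 13 embryos of window 3, it passed the count filter mainly through window 5, where it is high. The count of 5 is therefore a description. The median change over the 7 was 2.80 on the log2 scale, beside 0.17 over all genes tested. Col4a1 went from a range of 0 to 259 CPM to one of 18.5 to 3581 CPM, with 11 of 13 later embryos above all earlier ones, and rose by 5.24 ± 0.77 (SE, n = 13 per window; edgeR adjusted p = 1.65e-05). The rise of vkg was 5.20 ± 1.11 (edgeR adjusted p = 6.23e-04), with 9 of 13 later embryos above all earlier ones; the fitted value rests on 11 earlier embryos at 0. SPARC rose by 3.51 ± 0.64, Ndg by 2.80 ± 0.51 and Ppn by 2.44 ± 0.55, with edgeR adjusted p-values of 1.40e-04, 1.48e-04 and 1.10e-03. The same 5 were called without the embryo at 825 min, where Col4a1 rose by 5.35 and Ppn by 2.57.

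LanA and LanB1 changed by 0.43 ± 0.33 and 0.18 ± 0.36 between the same windows (edgeR adjusted p = 0.315 and 0.726). The difference between a collagen IV chain and a laminin was tested directly. The log2 ratio of Col4a1 to LanA was -4.77 ± 1.81 in window 3 and -0.12 ± 1.64 in window 5 (SD, n = 13 each), higher by 4.65 (two-sided permutation test, adjusted p = 0.00036). All 13 embryos of window 5 exceeded the median of window 3. Window 3 belongs to pool 5 and window 5 to pool 6, on different sequencing lanes, so that pool and time cannot be told apart here. Col4a1 ran from 0 through a median of 20.1 to 380 CPM in pool 5 and from 18.5 through 1255 to 3581 CPM in pool 6. LanA had medians of 826 and 1162 CPM in the same pools. Within pool 5 alone, with 13 embryos of window 3 and 6 of window 4, Col4a1 changed by 0.60 ± 0.80 (edgeR adjusted p = 1.00).

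**Figure D2:**
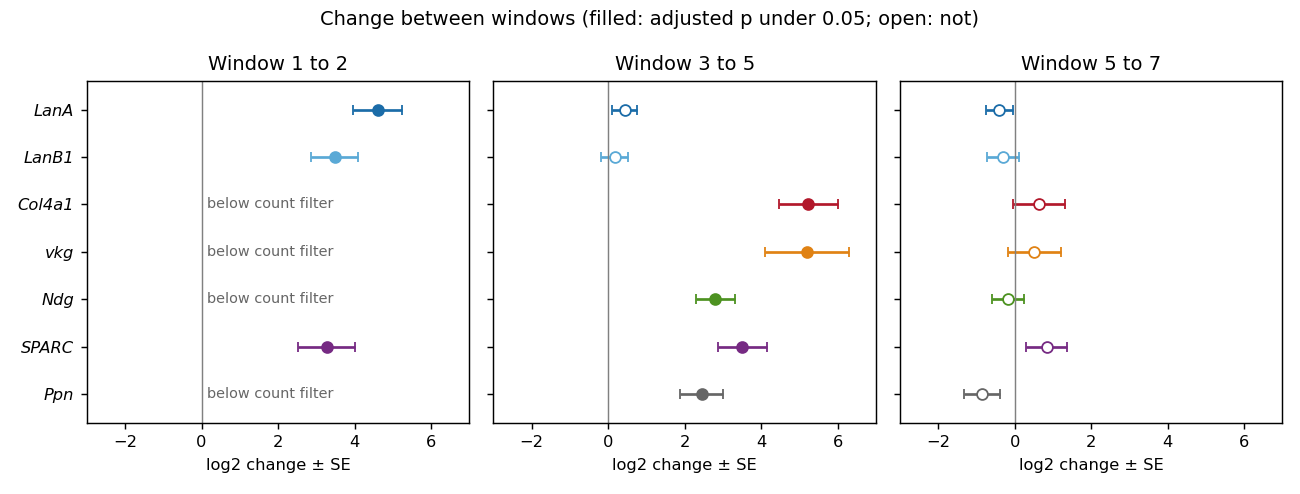
Change of each member between windows 1 and 2, 3 and 5, and 5 and 7 (log2 change ± SE from edgeR, n = 13 embryos per window); filled points had an adjusted p under 0.05, open points did not, and genes under the count filter are marked. LanA, LanB1 and SPARC are filled in the first panel, Col4a1, vkg, Ndg, SPARC and Ppn in the second, and no member in the third.

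Order in time was described by the time at which a running median of 5 embryos first reached 50% of its own highest value. LanB1 reached it at 300 min and LanA at 345 min, Ndg and Ppn at 675 min, SPARC at 705 min, vkg at 810 min and Col4a1 at 870 min. Over the 4 other ways of computing it the times ran from 300 to 330 min for LanB1, from 645 to 675 min for Ppn, from 705 to 750 min for SPARC, from 750 to 915 min for vkg and from 825 to 870 min for Col4a1, while LanA and Ndg kept theirs. The gap between the laminins and the others was larger than these ranges; within the others the order of vkg and Col4a1, of SPARC and vkg and of Ndg and Ppn was not settled. These times also depend on how high each gene went later, and 1 embryo per time gives no error for them.

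**Figure D3:**
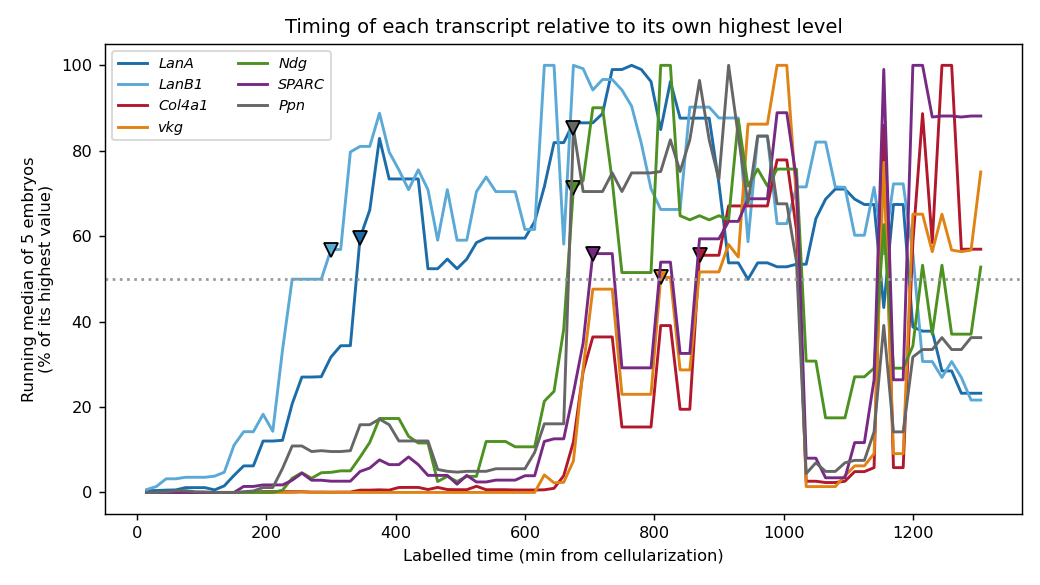
Running median of 5 embryos of each member, as a percent of its own highest value, against labelled time in min; triangles mark the first time at 50% (dotted line), 300 min for LanB1, 345 min for LanA and 675 to 870 min for the others. The curves of Col4a1, vkg, SPARC, Ppn and Ndg all drop in the stretch that holds the embryos from 1050 to 1110 min.

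Between windows 5 and 7, also compared after the values had been seen, edgeR called none of the 7 members, with none at an unadjusted p under 0.05, where 11.2% of 6190 genes tested were called. DESeq2 and limma voom called none either. With libraries scaled by spike-ins LanA fell by 1.31, LanB1 by 1.19 and Ppn by 1.39 (edgeR adjusted p = 0.00774, 0.0351 and 0.0476). That scaling moved the median of all genes from -0.06 to -0.71, so relative to the median these changes were smaller than the values given. With it 1927 of the 6190 genes tested were called, 1823 of them as fallen.

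Among the 39 embryos of windows 5 to 7, Col4a1 was over 1000 CPM in 23, under 200 CPM in 11 and between these limits in 5. The 11 embryos were labelled 825, 930, 1005, 1050, 1065, 1080, 1095, 1110, 1155, 1170 and 1200 min. In the embryo at 1005 min Col4a1 was 42.5 CPM, vkg 0 and SPARC 1.21 CPM, while LanA was 348 CPM. At 1080 min Col4a1 was 25.4, vkg 1.11, SPARC 3.32 and LanA 922 CPM, and at 1200 min Col4a1 was 24.8, vkg 12.4, SPARC 50.6 and LanA 1064 CPM. Across the 11 embryos vkg was at most 41.7 CPM and SPARC at most 157 CPM, and Ppn at most 56.5 CPM, while LanA was over 300 CPM in 10 of them; the exception was the embryo at 825 min with 50.8 CPM.

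Other transcripts also stood apart in some of these embryos. Mhc, the myosin heavy chain of muscle, was 9.70 CPM at 1005 min, 32.1 CPM at 1080 min and 55.0 CPM at 1200 min, against a median of 1510 CPM in window 6 and 1888 CPM in window 7. NimC4, a phagocytosis receptor gene of hemocytes and glia, was 673, 538 and 229 CPM in the same 3 embryos, against medians of 260 CPM in window 6, which holds the first 2 of them, and 17.6 CPM in window 7. Of the 11 libraries 4 were shallow and 7 were not. The embryo at 930 min differed from these 3, with Ndg at 306 CPM and Mhc at 1180 CPM beside Col4a1 at 106 CPM. So did others of the 11. Mhc was 812 CPM at 1170 min and 325 CPM at 1050 min, and NimC4 was 260 CPM at 1050 min and 0 at 825 min. The part of embryo stage or depth in these values was not tested.

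**Figure D4:**
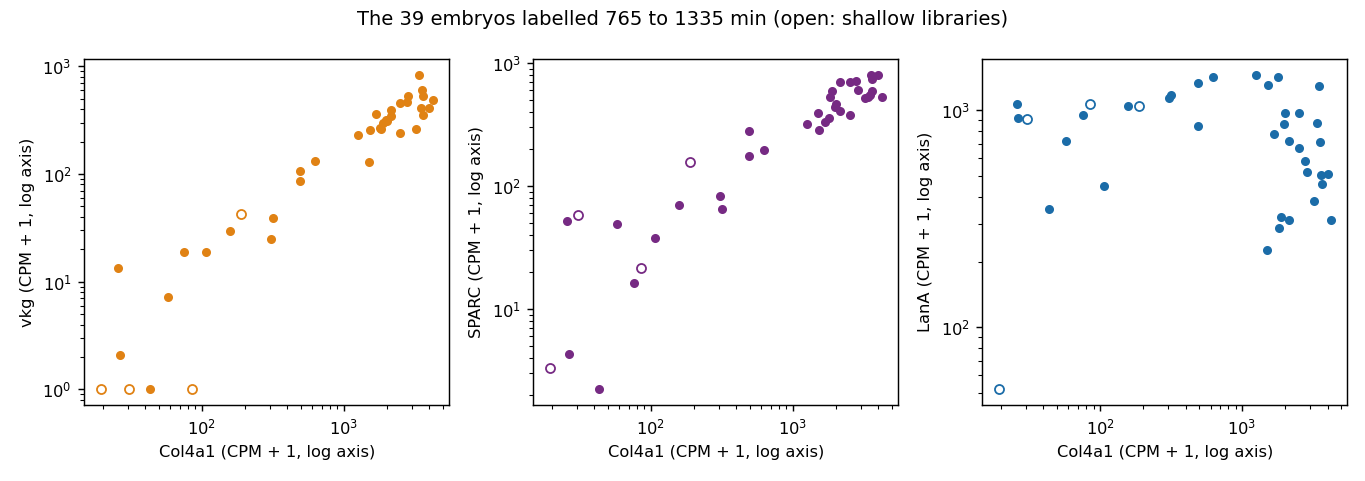
Levels of vkg, SPARC and LanA against Col4a1 in the 39 embryos labelled 765 to 1335 min (CPM + 1, both axes logarithmic; each point is 1 embryo, open points are shallow libraries). Embryos with Col4a1 under 200 CPM lie low in vkg and SPARC as well, while in LanA all but 1 of them lie over 300 CPM.

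Levels were compared between members over the 85 embryos that were not shallow, as log2(CPM + 1). Embryos share pool and depth, and the values are descriptions. Pearson's r was 0.936 for LanA with LanB1, 0.922 for Col4a1 with vkg, 0.902 for Col4a1 with SPARC and 0.896 for Ndg with Ppn. After a spline of labelled time was taken out these were 0.653, 0.815, 0.722 and 0.733. LanA with Col4a1 gave 0.616 and 0.211. In the 35 such embryos of windows 5 to 7, r was 0.838 for LanA with LanB1, 0.955 for Col4a1 with vkg and -0.223 for LanA with Col4a1. Over these 35 embryos r with Mhc was 0.912 for Col4a1, 0.921 for vkg and 0.942 for SPARC, against -0.213 for LanA, and r with the log10 of gene counts was 0.659 for Col4a1, 0.699 for vkg and 0.630 for SPARC. With labelled time it was -0.689 for LanA, -0.607 for LanB1 and 0.09 for Col4a1.

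The genes most like the mean profile of the members among 6234 compared over the 85 embryos were Act57B, an actin of muscle (r = 0.949), sls, a giant sarcomere protein (0.943), CG31808, Pdp1, a transcription factor gene, CG43051, apolpp, the main lipoprotein precursor (0.927), FBgn0261642, elB, nahoda and CG34417. Nearest to LanA were nrv2, a subunit of the sodium pump (0.950), Wnt4, a signal protein, and luna, and nearest to LanB1 were Fas2, a cell adhesion protein (0.936), with Wnt4 and luna. For Col4a1 they were Tm2, a tropomyosin (0.941), Mlp60A and Mhc (0.927), and for vkg CG13321 (0.969), hoka and TpnC47D, a troponin C. Ndg was nearest to Act57B (0.947), sls and chinmo, SPARC to Act57B (0.916), sls and CG8547, and Ppn to Npc2g (0.927), sls and Act57B.

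Other components of the matrix were read from a list of 5 genes. All 5 varied with time by the edgeR spline, as did 82.1% of all genes tested. wb, the other laminin alpha chain, was highest in window 3 with a mean of 82.1 ± 26.5 CPM (SD, n = 13), and fell from window 3 to 5 by 1.04 ± 0.34 (SE; edgeR adjusted p = 0.0174). Mp, a multiplexin of the collagen XV and XVIII type, rose by 4.26 ± 0.64 in that step and had its highest mean, 54.9 ± 34.0 CPM, in window 7. Pxn, the peroxidase that crosslinks collagen IV, rose by 2.20 ± 0.81. prc, pericardin, a collagen-like protein of the heart, reached 129 ± 93.7 CPM in window 7. wb was thus the only one of these 5 to fall between windows 3 and 5, 2 rose, and 2 did not pass the count filter. Of all genes tested in that step 37.2% were called and 23.4% rose. Mp and Pxn had medians of 1.58 and 0 CPM in window 3 and passed the filter mainly through window 5, where they are high. The count of genes that rose is therefore a description.

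In the list for collagen processing and secretion 6 of 8 genes varied with time, a share below the 82.1% of all genes tested. The highest window means were 297 ± 121 CPM for ergic53 in window 3 (SD, n = 13) and 146 ± 86.5 CPM for Rab10 and 132 ± 138 CPM for Rab8 in window 1. PH4alphaEFB, a prolyl hydroxylase that acts on collagen, rose from window 1 to 2 by 2.29 ± 0.70. In the same step ergic53, a cargo receptor of secretion, rose by 0.76 ± 0.24. Crag and Rab8, which act in polarized traffic, fell by 2.51 and by 1.15. The other 4 of the 8 were not called, where 25.1% of all genes tested were called. Plod, the lysyl hydroxylase of collagen, was the only one of the 8 called from window 3 to 5, where 37.2% of all genes tested were called. Plod rose by 1.70 ± 0.34 (edgeR adjusted p = 3.14e-04). Its median was 49.9 CPM in window 3, 144 CPM in window 5 and 39.4 CPM in window 7. The mean of 241 ± 748 CPM in window 1 rests on the library at 120 min, with its median at 33.5 CPM.

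Of 8 receptor genes 6 had enough counts and 5 varied with time, a share near that of all genes. Their highest window means were 380 ± 44.5 CPM for Sdc (syndecan) in window 3 (SD, n = 13), 272 ± 91.1 CPM for mys in window 7, 187 ± 76.3 CPM for Dg in window 4 and 101 ± 83.7 CPM for if in window 7. Sdc rose by 0.88 and Dg (dystroglycan) by 0.87 from window 1 to 2, 2 of 5 tested, beside 11.1% of all genes tested. From window 3 to 5 mys, the integrin beta chain, rose by 0.43 ± 0.16 and if, an integrin alpha chain, by 1.49 ± 0.50, while Sdc fell by 0.52, so that 3 of 5 changed, beside 37.2% of all genes tested. The intracellular integrin adhesion genes varied in 9 of 10 cases, again near the 82.1% of all genes, with highest window means of 248 CPM for rhea, 201 CPM for Pax, 184 CPM for Fak and 161 CPM for Ilk. From window 3 to 5, where 23.4% of all genes tested rose, 6 of 10 rose and none fell: Vinc (vinculin) by 2.78, Pax (paxillin) by 2.56, Ilk by 2.21, stck by 1.91, parvin by 1.43 and rhea (talin) by 0.86. Vinc was at 0 in 7 of 13 embryos of window 3 and passed the count filter mainly through window 5, where it is high. The count of 6 is therefore a description. From window 1 to 2 Fak had risen by 0.74, while Pax fell by 1.52 and stck fell by 0.78. Among 6 remodelling enzymes 4 were tested over time and all 4 varied, with low levels. The highest window means were 28.1 CPM for Mmp2 in window 5, 25.5 CPM for Mmp1 and 11.3 CPM for Timp in window 7, and 20.7 CPM for stl in window 3. From window 3 to 5 none of the 3 tested was called, where 37.2% of all genes tested were called.

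Marker genes of hemocytes, fat body and glia changed as well. The summed level of 15 hemocyte markers had a median of 405 CPM in window 1, 2044 in window 2, 2108 in window 3, 889 in window 5 and 213 in window 7, most of it NimC4 in windows 2 and 3, where its medians were 1551 and 1582 CPM. Other high window means were 266 CPM for PPO2 in window 5, 224 CPM for gcm in window 2 and 188 ± 367 CPM for srp in window 1. That window holds the library at 120 min, and the median of srp there was 29.3 CPM, against 120 CPM in window 2. The range of the sum was 1081 to 3163 CPM in window 3 and 113 to 1908 CPM in window 5. From window 3 to 5 ush, gcm, crq and NimC4 fell and PPO2 rose by 2.24 ± 0.82, out of 9 tested, beside 37.2% of all genes called. Some markers not called had higher medians later. The median of Pvr was 22.7 CPM in window 3 and 45.4 CPM in window 5, and that of Hml was 0 in window 3 and 5.32 CPM in window 7. NimC4, most of the sum in windows 2 and 3, is a gene of glia as well as of hemocytes. crq, a scavenger receptor gene, fell by 2.84 ± 0.58. The larval hemocyte marker eater had a median of 0 in all 7 windows. The part of hemocyte number in the members' levels was not tested.

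Of the 8 fat body markers 2 were tested over time, apolpp and Lsp1gamma, and 6 had too few counts. Their summed level had medians of 5.39, 98.2, 282, 339, 1114, 714 and 610 CPM in windows 1 to 7, nearly all from apolpp with a highest window mean of 1109 CPM, beside 58.1 CPM for Lsp1gamma, 3.94 CPM for Lsp2 and 1.64 CPM for Lsp1beta. The sum ran from 22.2 to 888 CPM in window 3 and from 4.62 to 3070 CPM in window 5. apolpp rose by 5.55 ± 0.86 from window 1 to 2 and by 2.49 ± 0.61 from window 3 to 5. Among 6 glia markers the sum had medians of 49.5 CPM in window 1, 252 in window 3, 360 in window 5 and 430 in window 7. Highest window means were 154 CPM for Gs2, 139 CPM for nrv2 and 78.5 CPM for alrm, and 158 ± 445 CPM for loco in window 1, which holds the library at 120 min. From window 3 to 5, 3 of the 6 rose, beside 23.4% of all genes, alrm by 5.60 ± 0.87, Gs2 by 1.77 ± 0.56 and moody by 1.61 ± 0.53. In window 3 the median of 1 of the 6 was 0, and such a gene passes the count filter mainly through window 5. The count of 3 is therefore a description. The part of either cell type in the members' levels was not tested.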

How the data were processed

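Raw read counts, 1 column per embryo and 1 line per gene, are what the authors deposited. Build BDGP5 and the tools HTSeq 0.5.4p3, Bowtie2 2.1.0 and CASAVA 1.8 are named, per the submitters' processing notes; neither strand setting nor use of molecular identifiers is given in the sources used here. Lane and library index, the index being read here as the library pool, came from a deposited sample sheet, whose entries are not measurements. Of all counts 60.7% fell on fly genes, which alone made up library sizes, 3.29% on ERCC spike-ins and 36.1% on summary lines that name no gene. Of the identifiers 15002 had a symbol in the name table and 680 had none. The reference annotation is of another build, so no coordinates are given.

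The quasi-likelihood F-test of edgeR 4.0.16 (R 4.3.3, limma 3.58.1; TMM, filterByExpr) compared windows on their 26 embryos, and a natural cubic spline with 5 degrees of freedom tested time over all embryos. Benjamini-Hochberg adjustment ran over all genes tested, with calls under 0.05. Standard errors are the log2 change divided by the square root of F. Ratios within embryos were tested with 100000 permutations, 9 comparisons adjusted together. Scripts were tested on simulated data. Alternatives were DESeq2 1.42.0 (size factors, and its test), spike-in scaling, no filter, limma voom, left-out libraries, pool and other splines.

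Genes named are all members, the up to 4 genes with the highest window mean of each other list, called genes of the lists (added after their values were seen), and the genes most like the members by correlation. Members and lists were chosen with earlier results of these data known. Mothers and plates of the embryos are not in the labels; p-values thus refer to spread among these embryos, which may in part be technical. Counts limit precision: 1 count in a library of median depth is under 1 CPM, and intervals for counting error are not given.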

Additional observations from a re-analysis of the deposited data

How the results depend on the processing

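The count of members called kept within 1.5 times its value in 63 of 69 alternatives. From window 1 to window 2 it was 3, and 7 with no filter on low counts. From window 2 to 3 it was 0, and 1 by DESeq2 and 2 by limma voom. From window 3 to 4 it was 0, and 3 by DESeq2 and 4 with no filter, where 1772 of 12573 genes tested were called. From window 5 to 7 it was 0, and 3 with spike-in scaling. The cause of these differences was not tested, apart from the filter, which sets which members are tested. Single calls of members were kept in 135 of 136 alternatives; vkg was lost in the spline with pool as a covariate (adjusted p = 0.0815). With 10 CPM added in place of 1 CPM the log2 ratio of LanA to LanB1 rose by 1.19 from window 1 to 2 and was called, and that of Col4a1 to vkg from window 3 to 5 turned from -1.16 to 0.77, adjusted p = 0.014; vkg is at 0 in most embryos of window 3.

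Counts over all genes depended more on the setting. Over the alternatives they ran from 3146 to 11429 for the spline (7155 in the test reported), from 799 to 3808 from window 1 to 2 (1440), 0 to 1572 from 2 to 3 (200), 0 to 1772 from 3 to 4 (15), 0 to 303 from 4 to 5 (6), 0 to 381 from 5 to 6 (34), 0 to 61 from 6 to 7 (0), 1744 to 5105 from 3 to 5 (2237) and 703 to 1927 from 5 to 7 (693). Rising genes made up 44.2%, 31.3% and 29.5% of calls from window 1 to 2 with TMM, DESeq2 size factors and spike-ins, and 62.9%, 73.3% and 54.1% from window 3 to 5. Without the embryo at 825 min the count from window 4 to 5 was 303. Comparisons of windows 3 and 5, of windows 5 and 7, of ratios, and those without the embryo at 120 min were chosen after seeing the data. No paired analysis was possible because the replicate numbers only name embryos within a window. With 1 embryo per time, change within a window cannot be told from spread between embryos.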
